A study of Mus musculus with 6 samples.

Results

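The cytochrome P450 family 2 was taken as every gene whose probe sets carry a single annotated symbol that starts with Cyp2 followed directly by a letter. The rule found 36 genes of 16277 with a single symbol on the array, measured by 342 of its 229581 probe sets. They fall into 11 subfamilies: 11 genes of Cyp2c, 8 of Cyp2d, 5 of Cyp2j, 4 of Cyp2b, 2 of Cyp2a, and 1 each of Cyp2ab, Cyp2e, Cyp2f, Cyp2g, Cyp2r and Cyp2s. The data are from an Affymetrix exon array, on which a gene is read by several probe sets, hybridised with total RNA of whole liver from mice aged 1 month that had received no treatment. The comparison is between 3 arrays labelled SRSF3HKO, from mice that lack the splicing factor SRSF3 in hepatocytes, and 3 arrays labelled WT, from wild-type controls that the labels call littermates and age-matched. The labels do not name the promoter that drives the deletion, the exons deleted or the sex of the mice, and they do not say that the WT arrays come from separate mice, so the p-values below measure only the spread between these arrays. Replicate numbers here only name arrays, in accession order within a group, and pair none across groups.

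Cytochromes P450 are haem enzymes that insert an oxygen atom into their substrates, with electrons passed on by the reductase Por and, for some reactions, by cytochrome b5. Family 2 is the largest P450 family of the mouse, sits in the endoplasmic reticulum of hepatocytes and oxidises drugs, steroids, retinoids, bile acids and fatty acids such as arachidonic acid. Many of its genes lie in tandem clusters of close copies, and in liver their level is set by nuclear receptors such as CAR (Nr1i3) and PXR (Nr1i2), by hepatocyte transcription factors and, for the sex-biased ones, by growth hormone.

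Levels are the log2 of the deposited PLIER intensity plus 16, with a gene's level the median over its probe sets. A difference on this scale understates the change of dim genes. Whether it also understates changes of very bright probe sets was not tested. In Cyp2e1, probe set 5542302 (WT mean 16100) changed by -0.12 and 4311055 (10300) by -0.58. In Cyp2c50, 5475921 (10900) changed by -1.39 and 5318752 (1480) by -2.79. The reverse held in Cyp2d13, where the brightest, 5585711 (17600), changed most, by -4.55. A gene was tested when its mean over the 6 arrays passed 5.35, the level under which 90% of olfactory, vomeronasal and taste receptor genes fell. Median probe set intensity of the arrays lay between 75.3 and 89.6. Srsf3 itself read 9.79, 9.24 and 9.35 on the WT arrays and 10.30, 9.10 and 9.78 on the SRSF3HKO arrays, and of its 13 tested probe sets 6 were called higher and 0 lower; since the labels do not give the deleted part, these probe sets do not check the genotypes, and every direction below rests on the labels. The hepatocyte markers Alb, Ttr and Apoa1 lay at or above 13.39 on all arrays, and 0 of 9 tested hepatocyte markers were called changed. The Y-linked gene Eif2s3y was above the floor on WT replicates 1 and 2 (8.62 and 8.36) and SRSF3HKO replicate 3 (8.99), and below it on WT replicate 3 (4.18) and SRSF3HKO replicates 1 and 2 (4.16 and 4.17).

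Expression of the Cyp2 family was lower in SRSF3HKO liver: 13 of the 32 tested genes were called lower and 0 higher (limma, adjusted p under 0.05), beside 5.03% of all 11711 tested genes called lower and 6.85% called higher. The 13 are Cyp2c29, Cyp2c44, Cyp2c50, Cyp2c54, Cyp2c67, Cyp2c68, Cyp2d13, Cyp2d22, Cyp2d40, Cyp2f2, Cyp2g1, Cyp2j5 and Cyp2r1. The median log2 change over the tested members was -0.98, beside 0.08 over all tested genes, and 28 of the 32 changes were negative. In 18 members every SRSF3HKO array lay below every WT array, and in 0 members above. Among all tested genes the groups separated downwards in 14% and upwards in 21.6%. The 18 include Cyp2g1, also among the 13, and Cyp2b19. Both passed the floor only through WT arrays, with SRSF3HKO means of 4.87 and 5.02. Leaving out WT replicate 1 left 6 members called lower, WT replicate 2 left 7 and WT replicate 3 left 8, and without WT replicate 3 the median change was -0.63.

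**Figure D1:**
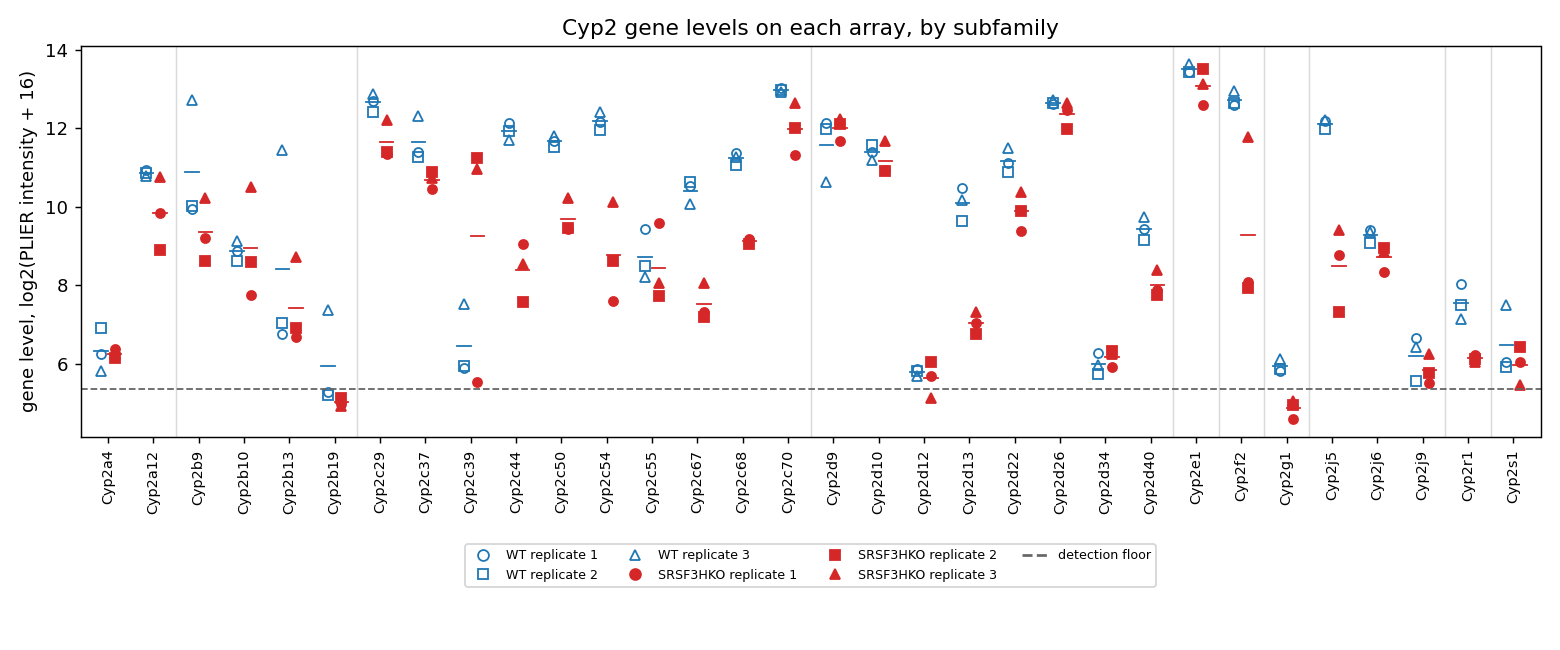
Gene level, log2(PLIER intensity + 16), of the 32 tested Cyp2 genes on each of the 6 arrays, ordered by subfamily; open symbols are WT, filled symbols SRSF3HKO, short lines the group means and the dashed line the detection floor of 5.35. The SRSF3HKO symbols lie wholly below the WT symbols in 18 genes, and SRSF3HKO replicate 3 (filled triangle) is the highest of the 3 knockout arrays in 19.

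The 3 SRSF3HKO arrays did not move by the same amount. Relative to the WT mean, the median deviation over the tested members was -1.26, -0.98 and -0.66 on SRSF3HKO replicates 1, 2 and 3, and 0.01, -0.19 and 0.11 on the WT arrays. Over the 13 genes called lower the SRSF3HKO deviations were -2.24, -2.22 and -1.51. Replicate 3, the SRSF3HKO array with Y-linked signal, was thus the least changed, and it was the highest of the 3 for 19 members, against 5 for replicate 1 and 8 for replicate 2. The SD within a group, as the median over members, was 0.26 in WT and 0.46 in SRSF3HKO, beside 0.19 and 0.29 over all tested genes. Among members with a WT mean of at least 10 on the log2 scale, 10 of 18 were called lower, beside 20.9% of all genes that bright. Of the 14 dimmer members 3 were, beside 5.03% of all tested genes at any level. A share over the dimmer genes alone was not taken.

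**Figure D2:**
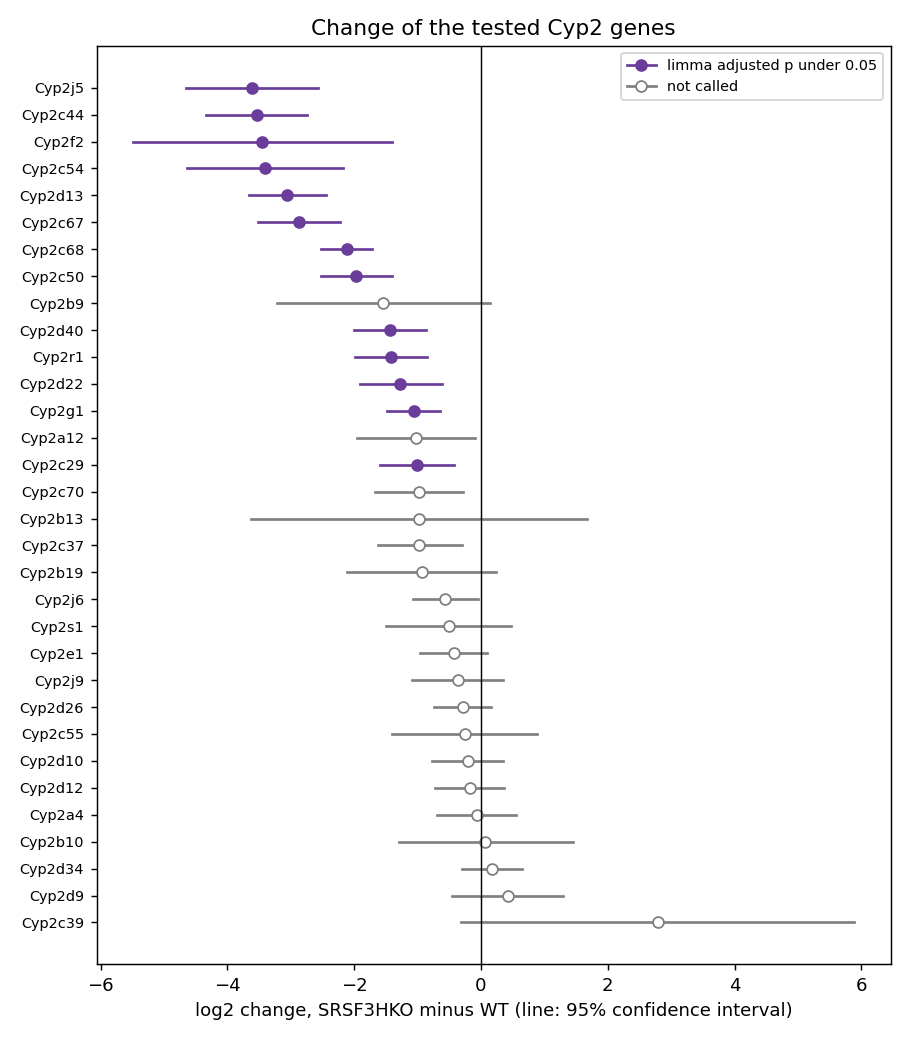
Log2 change, SRSF3HKO minus WT, of the 32 tested Cyp2 genes with its 95% confidence interval from limma; filled points were called (adjusted p under 0.05) and open points were not. The called falls run from -3.61 (Cyp2j5) to -1.01 (Cyp2c29), and the widest intervals belong to Cyp2c39, Cyp2b13 and Cyp2f2.

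The Cyp2c subfamily, which lies on chromosome 19 and holds epoxygenases of arachidonic acid, gave 6 of the 13 calls from 10 tested members, with a median log2 change of -1.49. Its largest fall was in Cyp2c44, an arachidonic acid epoxygenase now named Cyp2c23, which read 12.13, 11.92 and 11.71 in WT and 9.04, 7.57 and 8.54 in SRSF3HKO. The knockout arrays lay far below the WT arrays, a change of -3.54 ± 0.35 (SE, n = 3 per group; limma adjusted p = 0.00162), or 11.6-fold lower. Cyp2c54 read 12.16, 11.96 and 12.42 in WT and 7.61, 8.62 and 10.11 in SRSF3HKO. Here the groups did not overlap but the SRSF3HKO arrays were spread widely, replicate 3 being the least reduced, and the change was -3.40 ± 0.54 (adjusted p = 0.00885). It lost the call without WT replicate 1 (adjusted p = 0.0523) or WT replicate 2 (0.0546).

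Cyp2c67, measured by 1 probe set, read 10.52, 10.63 and 10.06 in WT and 7.32, 7.20 and 8.07 in SRSF3HKO, 7.33-fold lower (change -2.87 ± 0.28, adjusted p = 0.00158). Its neighbour on the chromosome, Cyp2c68, read 11.37, 11.07 and 11.27 in WT and 9.17, 9.05 and 9.14 in SRSF3HKO, 4.34-fold lower (change -2.12 ± 0.17, adjusted p = 0.000803). In Cyp2c68 the 3 knockout arrays were almost level, with an SD of 0.06, the tightest knockout group among the members called lower. Cyp2c50 read 11.66, 11.53 and 11.80 in WT and 9.43, 9.45 and 10.21 in SRSF3HKO, 3.92-fold lower (change -1.97 ± 0.24, adjusted p = 0.00368).

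Cyp2c29, a CAR-inducible enzyme of hepatocytes near the central vein, read 12.70, 12.42 and 12.87 in WT and 11.35, 11.40 and 12.20 in SRSF3HKO. The groups came close at SRSF3HKO replicate 3, and the change of -1.01 ± 0.26 had an adjusted p of 0.0402, which rose above 0.05 without any one array but SRSF3HKO replicate 3, up to 0.141 without WT replicate 1. Cyp2c70, which makes the muricholic bile acids of the mouse, read 13.02, 12.97 and 12.91 in WT and 11.31, 12.01 and 12.63 in SRSF3HKO. All knockout arrays were below all WT arrays, by amounts that differed from array to array. The change of -0.98 ± 0.30 was not called (adjusted p = 0.0706). Over the 20 alternatives the adjusted p ran from 0.0192, without SRSF3HKO replicate 3, to 0.203. Cyp2c37 was likewise lower on every knockout array (11.38, 11.26 and 12.30 in WT, 10.44, 10.89 and 10.72 in SRSF3HKO) without being called (-0.97 ± 0.29, adjusted p = 0.0667). Its adjusted p was 0.0486 without SRSF3HKO replicate 2 and reached 0.159 among the alternatives. Cyp2c55 overlapped between the groups (-0.25 ± 0.50), and Cyp2c65 was too dim to test.

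Cyp2c39, an enzyme that oxidises retinoic acid, stood apart from the rest of its subfamily. It read 5.90, 5.94 and 7.53 in WT and 5.54, 11.24 and 10.96 in SRSF3HKO. SRSF3HKO replicates 2 and 3 were thus far above WT, and replicate 1 was close to the floor. The change of 2.79 ± 1.35 was not called (95% interval -0.31 to 5.89, adjusted p = 0.214). Without SRSF3HKO replicate 1 it was 4.64 (adjusted p = 0.00207). This was the 1 call of a higher Cyp2 gene when arrays were left out singly. The probe sets of Cyp2c39 differed. On SRSF3HKO replicates 2 and 3, probe set 4763034 read 125000 and 108000, the highest intensity of each array, and on replicate 1 it read 831. Probe set 4842807 did not rise (22, 36.1 and 124 in WT, 35.5, 42.3 and 41.1 in SRSF3HKO).

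The promoters of neighbouring Cyp2c genes are shown here because they are close copies in the same cluster, of which Cyp2c67, Cyp2c68 and Cyp2c50 were called lower and Cyp2c37 was not. Cyp2c67 lies beside Cyp2c68, and Cyp2c37 lies in a run with Cyp2c54, Cyp2c50 and Cyp2c70. The sequences are RefSeq's (GRCm38.p6), from 250 bases before the start of the transcript to 50 after it, 5′ to 3′ on the gene's strand. Capitals mark matches, on either strand, to 5 motifs: the core promoter box TATAAA, the HNF4-type site CAAAGTCCA, the short HNF1-type site GTTAAT, the FOXA site TGTTTAC and the C/EBP site TTNNGCAA. No match overlapped another in the promoters printed. Cyp2c67 is at chr19:39648993-39649292 (minus strand), Cyp2c68 at chr19:39741052-39741351 (minus), Cyp2c37 at chr19:39992174-39992473 (plus) and Cyp2c50 at chr19:40089429-40089728 (plus).
Cyp2c67: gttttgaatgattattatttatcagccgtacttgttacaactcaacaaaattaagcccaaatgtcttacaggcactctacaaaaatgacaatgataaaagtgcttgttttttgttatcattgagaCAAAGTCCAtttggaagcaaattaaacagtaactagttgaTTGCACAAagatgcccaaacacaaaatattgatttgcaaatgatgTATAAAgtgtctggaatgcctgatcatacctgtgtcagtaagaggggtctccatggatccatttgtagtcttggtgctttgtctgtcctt
Cyp2c68: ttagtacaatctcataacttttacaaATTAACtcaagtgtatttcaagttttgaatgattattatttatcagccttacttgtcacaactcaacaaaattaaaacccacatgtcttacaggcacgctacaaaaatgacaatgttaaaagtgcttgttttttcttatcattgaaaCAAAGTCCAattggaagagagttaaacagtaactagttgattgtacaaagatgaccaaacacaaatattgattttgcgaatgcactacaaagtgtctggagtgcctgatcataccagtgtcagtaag
Cyp2c37: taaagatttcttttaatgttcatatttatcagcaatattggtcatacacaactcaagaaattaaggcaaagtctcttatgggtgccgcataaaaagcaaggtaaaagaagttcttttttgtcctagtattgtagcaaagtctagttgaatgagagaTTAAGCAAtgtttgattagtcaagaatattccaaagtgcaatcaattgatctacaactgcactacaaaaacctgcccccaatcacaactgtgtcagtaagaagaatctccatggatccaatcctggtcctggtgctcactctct
Cyp2c50: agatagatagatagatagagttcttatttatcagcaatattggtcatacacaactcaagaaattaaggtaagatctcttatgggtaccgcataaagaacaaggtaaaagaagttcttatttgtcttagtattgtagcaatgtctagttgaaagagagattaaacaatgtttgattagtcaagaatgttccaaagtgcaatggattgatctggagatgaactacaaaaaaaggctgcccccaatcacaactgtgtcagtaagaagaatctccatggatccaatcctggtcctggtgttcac
Cyp2c67 and Cyp2c68 share 230 of 300 aligned bases (76.7%) and both hold CAAAGTCCA, which occurs in 0.475% of all 32851 RefSeq mouse promoters of this length. Among the 25 tested members with a promoter in the table it was found in 2 of the 8 called lower (these) and 1 of the 17 not called, Cyp2c70. Cyp2c50 and Cyp2c37 share 264 of 300 bases (88%), and their changes of -1.97 (95% interval -2.53 to -1.41) and -0.97 (-1.63 to -0.30) have overlapping intervals; the difference between them was not tested. TATAAA was in 4 of the 8 called and 9 of the 17 not called, against 13.6% of all promoters, and TTNNGCAA in 1 and 7, against 10.8%. GTTAAT was in 1 of the 8 and 2 of the 17, against 7.1%. TGTTTAC was in 1 of the 8 (Cyp2j5) and 1 of the 17 (Cyp2c39), against 3.65%. TTCNNNGAA (STAT5) was in 0 of both sets, against 8.3%, as was TTATGTAA (PAR bZIP), against 0.938%. These matches describe letters only, and their part in the changes was not tested.

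In the Cyp2d subfamily, a cluster of chromosome 15, 3 of 8 tested members were called lower, and the median change was -0.25. Cyp2d13, a transcribed pseudogene in RefSeq, read 10.47, 9.64 and 10.17 in WT and 7.05, 6.77 and 7.31 in SRSF3HKO, 8.31-fold lower (-3.06 ± 0.26, adjusted p = 0.000941). Cyp2d40 read 9.43, 9.16 and 9.74 in WT and 7.88, 7.74 and 8.40 in SRSF3HKO (-1.44 ± 0.25, adjusted p = 0.0119). Cyp2d22, often compared with the human drug-metabolising CYP2D6, read 11.10, 10.89 and 11.49 in WT and 9.39, 9.90 and 10.38 in SRSF3HKO (-1.27 ± 0.28, adjusted p = 0.0270). All 3 genes separated the groups fully, but Cyp2d22 lost its call without any one WT array, with adjusted p between 0.0803 and 0.106, and Cyp2d40 lost it without WT replicate 1 (0.0660) or WT replicate 3 (0.0569).

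The other Cyp2d genes were not called. Cyp2d26, the member with the tightest WT arrays of the subfamily, read 12.61, 12.64 and 12.72 in WT and 12.46, 11.99 and 12.64 in SRSF3HKO, and its 95% interval ran from -0.74 to 0.16. Cyp2d10 overlapped between the groups (-0.21 ± 0.24), as did Cyp2d12 (-0.17) and Cyp2d34 (0.17). The low gene levels of the last 2 are medians over bright probe sets and probe sets near the floor. Probe set 5161592 of Cyp2d12 averaged 11600 in WT and 11500 in SRSF3HKO. In Cyp2d34, probe set 4392639 averaged 6380 and 6300, while 4393680 was called lower (-1.50). Cyp2d9, a testosterone 16-alpha-hydroxylase known as higher in males, read 12.14, 11.98 and 10.63 in WT and 11.67, 12.11 and 12.24 in SRSF3HKO. Its lowest array was WT replicate 3, the WT array without Y-linked signal, and the change of 0.42 ± 0.38 became -0.05 without that array.

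Cyp2j5, an arachidonic acid epoxygenase of liver and kidney, showed the largest fall of the family. It read 12.17, 11.97 and 12.20 in WT and 8.76, 7.33 and 9.41 in SRSF3HKO. No knockout array came near the WT arrays, and the change of -3.61 ± 0.46 (adjusted p = 0.00382) is 12.3-fold. Its RefSeq promoter (GRCm38.p6, chr4:96664070-96664369, minus strand) is printed as that of the most reduced member, with the TGTTTAC site and the TATAAA site, here in reverse complement and far upstream of the start, in capitals.
Cyp2j5: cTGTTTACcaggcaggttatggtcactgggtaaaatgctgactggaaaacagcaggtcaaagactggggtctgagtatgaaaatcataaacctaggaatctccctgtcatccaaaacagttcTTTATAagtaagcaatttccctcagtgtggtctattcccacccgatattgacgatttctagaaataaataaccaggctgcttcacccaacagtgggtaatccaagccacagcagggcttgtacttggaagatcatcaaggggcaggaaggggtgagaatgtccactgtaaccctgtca
The related Cyp2j6 was lower on every knockout array but by less (9.40, 9.07 and 9.35 in WT, 8.33, 8.94 and 8.85 in SRSF3HKO), and its change of -0.57 ± 0.22 was not called (adjusted p = 0.138). Cyp2j9 overlapped between the groups (-0.37 ± 0.31), and Cyp2j11 and Cyp2j13 were too dim to test as genes.

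Cyp2f2, which activates naphthalene in lung and in liver is a gene of hepatocytes near the portal vein, read 12.58, 12.63 and 12.94 in WT and 8.08, 7.94 and 11.78 in SRSF3HKO. SRSF3HKO replicates 1 and 2 were far below WT, whereas replicate 3 was only a little below it. The change was -3.45 ± 0.89 (adjusted p = 0.0431), with a 95% interval from -5.49 to -1.40. Without SRSF3HKO replicate 3 it was -4.70 (adjusted p = 0.000171), and without any other single array it was not called, with adjusted p between 0.0646 and 0.146. Cyp2e1, which oxidises ethanol and paracetamol near the central vein, read 13.43, 13.42 and 13.64 in WT and 12.59, 13.50 and 13.12 in SRSF3HKO. The groups overlapped and the gene was not called (-0.43 ± 0.23, 95% interval -0.96 to 0.10, adjusted p = 0.263).

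Cyp2r1, a 25-hydroxylase of vitamin D, read 8.02, 7.51 and 7.13 in WT and 6.23, 6.13 and 6.04 in SRSF3HKO, 2.67-fold lower (-1.42 ± 0.25, adjusted p = 0.0125). The knockout arrays were close together below all WT arrays; the call was lost without WT replicate 1 (0.0533) or WT replicate 2 (0.0624). Cyp2g1, a steroid hydroxylase best known from the nasal lining, was dim throughout, at 5.81, 5.88 and 6.12 in WT and 4.60, 4.96 and 5.06 in SRSF3HKO. All 3 knockout arrays were below the floor, so its fall (-1.06 ± 0.18, adjusted p = 0.0113) is given as at least 1.5-fold, the WT mean against the floor. Cyp2s1, an enzyme of epithelia, read 6.05, 5.91 and 7.49 in WT and 6.05, 6.43 and 5.45 in SRSF3HKO. Its groups overlapped, and it was not called (-0.51 ± 0.43, adjusted p = 0.476). Cyp2ab1 was too dim to test, at 4.95, 5.01 and 5.18 in WT and 4.86, 4.91 and 5.02 in SRSF3HKO.

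No Cyp2a or Cyp2b gene was called. The Cyp2a values rest on 8 probe sets of 1 symbol. A further 17 tested probe sets carry several Cyp2a symbols and cannot be given to one gene. Their median change was 2.08, with 4 called higher and 1 lower, beside 4.73% and 4.32% of all tested probe sets. Cyp2a12, a steroid and bile acid hydroxylase, read 10.93, 10.87 and 10.78 in WT and 9.85, 8.89 and 10.76 in SRSF3HKO. SRSF3HKO replicate 3 was level with WT while replicates 1 and 2 were lower, and the change of -1.03 ± 0.41 was not called (adjusted p = 0.139). The adjusted p of Cyp2a12 was 0.0266 without SRSF3HKO replicate 3 (change -1.49) and reached 0.306 among the alternatives. Cyp2a4, a female-biased testosterone 15-alpha-hydroxylase read by 1 probe set, read 6.26, 6.90 and 5.83 in WT and 6.37, 6.16 and 6.26 in SRSF3HKO, with the knockout arrays inside the WT range (-0.07 ± 0.27, adjusted p = 0.895).

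The Cyp2b genes varied widely within the groups. Cyp2b10, the classical CAR target, read 8.88, 8.62 and 9.12 in WT and 7.75, 8.59 and 10.50 in SRSF3HKO. The knockout arrays lay on both sides of the WT arrays, and the change of 0.07 ± 0.60 turned negative in 4 alternatives. Cyp2b9, known as higher in females, read 9.94, 10.02 and 12.72 in WT and 9.20, 8.62 and 10.23 in SRSF3HKO. Cyp2b13, also female-biased, read 6.75, 7.03 and 11.45 in WT and 6.69, 6.91 and 8.71 in SRSF3HKO. In both genes WT replicate 3, without Y-linked signal, was the highest array by a wide margin, and the SRSF3HKO arrays without that signal did not reach it. Neither was called (adjusted p = 0.205 and 0.624). Cyp2b19, a keratinocyte gene, was above the floor on WT replicate 3 (7.36) and below it on the other 5 arrays. Its probe set 4907995 read 805, 833 and 8370 in WT and 650, 347 and 928 in SRSF3HKO. Probe set 5406042 of Cyp2b13 read much alike (747, 729 and 7390, then 498, 268 and 791). Some probe sets of Cyp2b10 also jumped on WT replicate 3, as 5494421 (870, 736 and 7860 in WT). Others did not, as 4309014 (507, 443 and 516). How much of these readings comes from another Cyp2b gene was not tested.

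Cyp2b9 and Cyp2b13 are close copies, so their readings may share target RNA. Their RefSeq promoters (GRCm38.p6) are the same in 298 of 300 bases, and both differences, in capitals, lie in the first 120 bases, shown here for Cyp2b9 at chr7:26173159-26173278 and Cyp2b13 at chr7:26061245-26061364, plus strand.
Cyp2b9: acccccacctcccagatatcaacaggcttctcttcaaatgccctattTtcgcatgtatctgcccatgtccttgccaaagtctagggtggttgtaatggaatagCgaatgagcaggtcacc
Cyp2b13: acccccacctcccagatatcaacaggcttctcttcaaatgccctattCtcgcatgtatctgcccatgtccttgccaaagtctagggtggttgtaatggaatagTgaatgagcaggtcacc
Counted from 1 at the 5′ end of the stretch, with the Cyp2b9 base first, the differences are T48C and C104T. Both genes had their highest array in WT replicate 3 and the next in SRSF3HKO replicate 3.

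Since Y-linked signal split both groups, and not evenly between them, the genotype change was also taken within arrays alike in it. With Y-linked signal (SRSF3HKO replicate 3 against WT replicates 1 and 2) Cyp2b13 changed by 1.82 and Cyp2b9 by 0.25; without it (SRSF3HKO replicates 1 and 2 against WT replicate 3) they changed by -4.65 and -3.80. Cyp2f2 changed by -0.82 with the signal and -4.93 without, Cyp2c54 by -1.95 and -4.30, and Cyp2b10 by 1.75 and -0.95. Other members changed by similar amounts in both: the change was -3.49 and -3.41 in Cyp2c44 and -2.08 and -2.16 in Cyp2c68. The difference between the 2 changes, an interaction term with 2 residual degrees of freedom among the arrays, was largest for Cyp2b13, 6.47 ± 0.52 (adjusted p = 0.0669), then Cyp2c39, 4.18 ± 2.70 (adjusted p = 1), Cyp2f2, 4.11 ± 0.42 (adjusted p = 0.0743), and Cyp2b9, 4.06 ± 0.52 (adjusted p = 0.199). Limma called this difference in 0 of 11711 genes (0%), and 272 had an unadjusted p under 0.05. Each of these changes rests on a single array on one side, and with a covariate for Y-linked signal 10 of the 13 calls were kept, Cyp2c29 (adjusted p = 0.0979), Cyp2d22 (0.0713) and Cyp2f2 (0.0761) being lost.

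**Figure D3:**
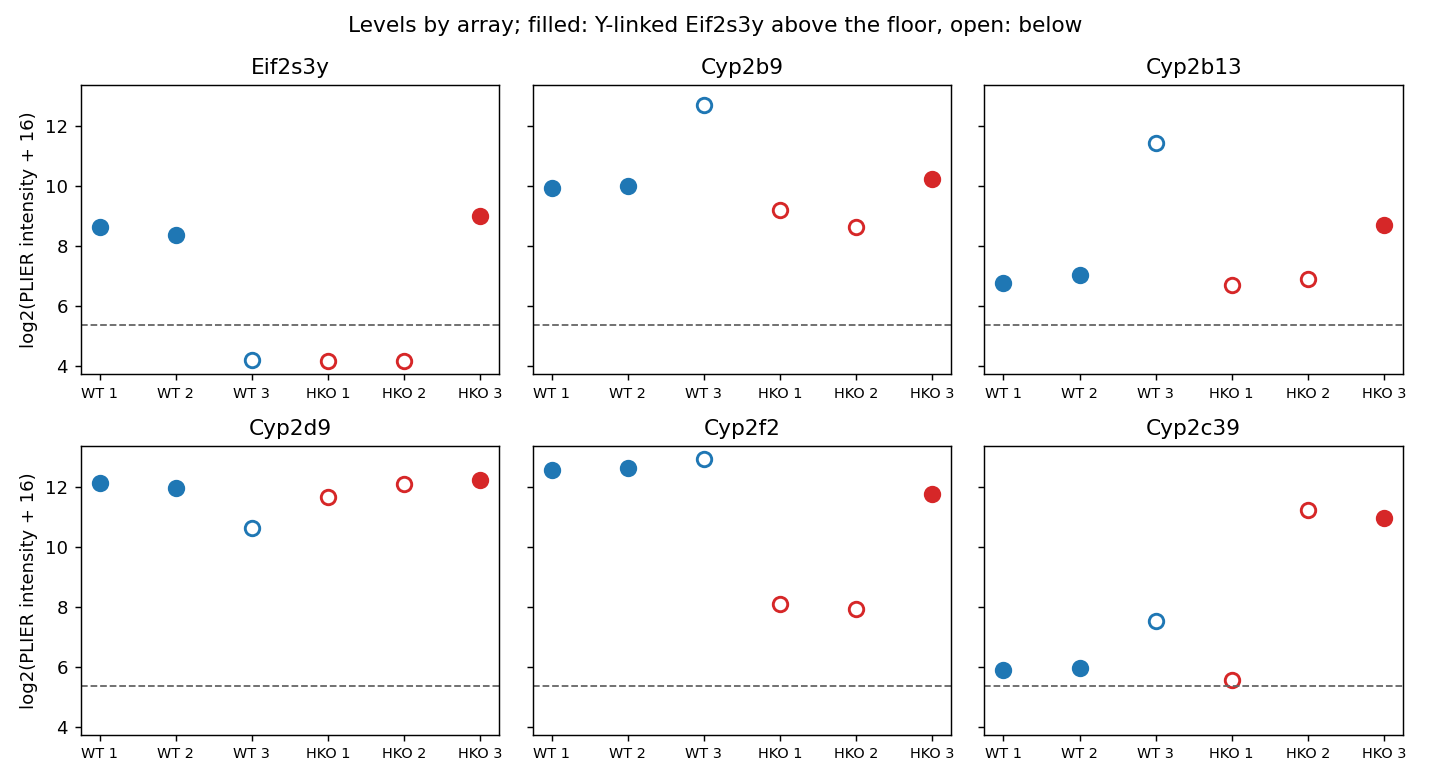
Log2(PLIER intensity + 16) on each of the 6 arrays (WT blue, HKO for SRSF3HKO red) of Y-linked Eif2s3y and 5 Cyp2 genes; filled points are arrays with Eif2s3y above the floor (dashed line, 5.35) and open points those below it. Cyp2b9 and Cyp2b13 are highest on WT replicate 3, which is an open point, and Cyp2f2 on SRSF3HKO replicate 3 (11.78) is near the WT arrays.

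Of 278 tested Cyp2 probe sets 95 were called lower and 0 higher, beside 4.32% and 4.73% of all 157764 tested. The count called lower was 51, 55 and 59 without WT replicates 1, 2 and 3, and 6 were called higher without SRSF3HKO replicate 1. Every tested probe set was called lower in Cyp2j5 (13 of 13, changes from -4.22 to -3.28), Cyp2c44 (11 of 11, -4.08 to -2.65), Cyp2c50 (6 of 6), Cyp2c54 (5 of 5), Cyp2c68 (5 of 5) and Cyp2c67 (1 of 1). Of Cyp2f2 11 of 13 were called, and of Cyp2r1 5 of 7. Among genes not called as a whole, Cyp2c70 had 4 of 11 called lower, and Cyp2c37, Cyp2d34 and Cyp2j13 had 1 each.

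The change was unequal between the probe sets of 4 of the 31 Cyp2 genes with at least 3 tested probe sets, by limma's diffSplice (Simes adjusted p under 0.05), beside 5.81% of all 12252 such genes. They are Cyp2d13 (adjusted p = 0.000226), Cyp2g1 (0.000521), Cyp2d40 (0.00114) and Cyp2d34 (0.0144). A splicing index, each probe set minus the mean of the others of its gene with a spread of its own, called Cyp2d13 (0.0273), Cyp2g1 (0.0152) and Cyp2d40 (0.0440) and not Cyp2d34 (0.129), beside 0.775% of all genes. Without WT replicate 1, 2 or 3, Cyp2g1 lost the diffSplice call (adjusted p = 0.140, 0.210 and 0.262), as did Cyp2d34 (0.0549, 0.0546 and 0.0666), and Cyp2d40 lost it without WT replicate 3 (0.0508). Cyp2d34 also lost it without SRSF3HKO replicate 1 (0.0988), and Cyp2d13 was called with any one array left out. In Cyp2d13, WT intensities at probe set 5585711 were 21200, 9610 and 22000, and SRSF3HKO intensities were 653, 586 and 860 (log2 change -4.55 ± 0.32). At probe set 4741163 of the same gene the WT arrays had 8740, 8140 and 8320 and the SRSF3HKO arrays 5710, 6470 and 7770 (-0.35). The first fell on every knockout array to a small part of its WT intensity, while the second lost far less.

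In Cyp2d40, WT intensities at probe set 5162376 were 2300, 2170 and 2160, and SRSF3HKO intensities 219, 257 and 441 (log2 change -2.85 ± 0.27). Probe set 4670583 had 6910, 6140 and 3830 in WT and 5450, 6790 and 6780 in SRSF3HKO (0.21), so that the groups overlapped there while they were far apart at the first. In Cyp2g1, WT intensities at probe set 5497456 were 164, 143 and 205, and SRSF3HKO intensities 0.0249, 4.72 and 0.959. All 3 knockout values lie below the probe set floor (5.63 on the log2 scale), so the size of this fall is set by the pseudocount and is not given. Probe set 4320248 was close to the floor throughout (54.7, 51 and 50.8 in WT; 34.7, 53 and 29 in SRSF3HKO), its groups overlapped, and the unequal change of Cyp2g1 was not called with a pseudocount of 1 (adjusted p = 0.0893). The Cyp2d genes are close copies. Probe set 5332485 of Cyp2d9 read much like 4670583 of Cyp2d40 (7150, 6290 and 4090 in WT, 5680, 6880 and 6830 in SRSF3HKO). In Cyp2d40, 4735671 read much like 4741163 of Cyp2d13 (8650, 8160 and 8600 in WT, 5960, 5900 and 7510 in SRSF3HKO). How much of each reading comes from another copy was not tested. Whether the contrasts in Cyp2d13 and Cyp2d40 lie within a single gene was thus not tested either.

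**Figure D4:**
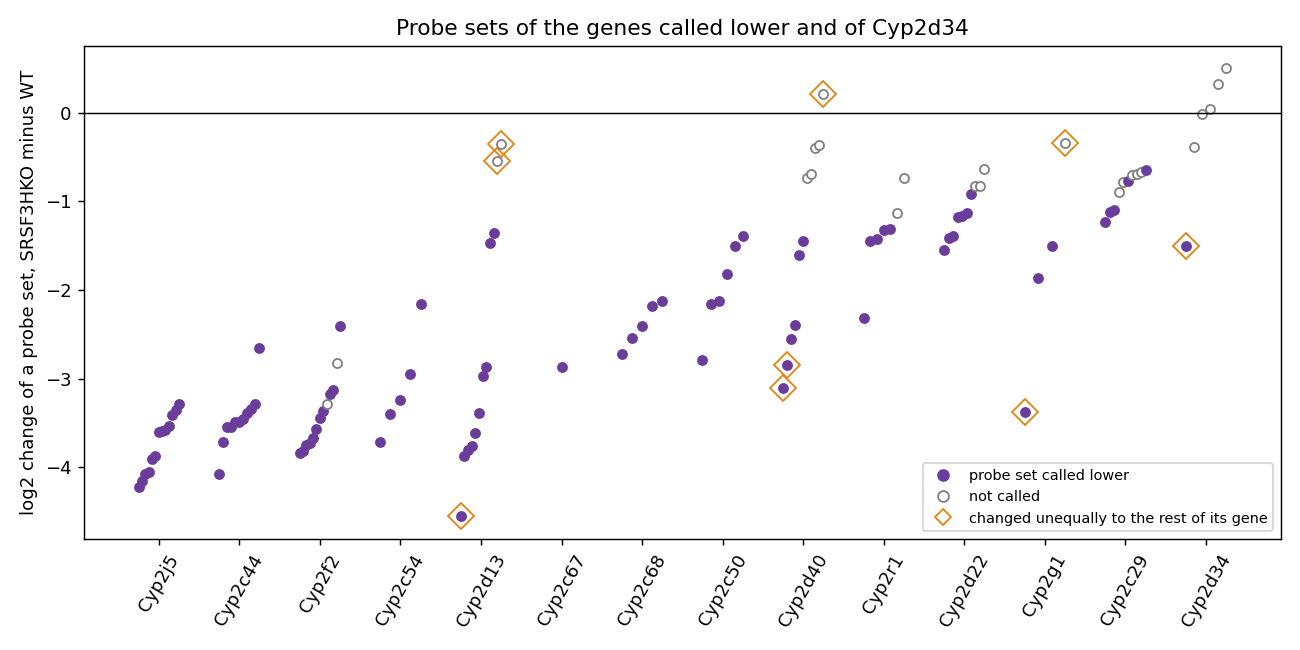
Log2 change of each tested probe set, SRSF3HKO minus WT, in the 13 Cyp2 genes called lower and in Cyp2d34; filled points were called lower, open points were not, and diamonds mark probe sets that diffSplice called as changed unequally to the rest of their gene. The points of Cyp2j5 and Cyp2c44 lie close together, whereas those of Cyp2d13 run from -4.55 to -0.35 and those of Cyp2d40 from -3.11 to 0.21.

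Genes that work with or control the family are read against 5.03% of all tested genes called lower and 6.85% called higher. Of 8 tested partners 1 was lower and 1 higher, with a median change of 0.03: the cytochrome b5 of the outer mitochondrial membrane, Cyb5b, fell (11.35, 11.15 and 11.19 in WT, 9.85, 9.85 and 10.17 in SRSF3HKO; -1.27 ± 0.18, adjusted p = 0.00587), and the haem-degrading Hmox1 rose (7.26, 7.50 and 7.61 in WT, 10.25, 9.50 and 8.92 in SRSF3HKO; 2.10 ± 0.33, adjusted p = 0.00842). The reductase Por had a change of 1.14 ± 0.33 (adjusted p = 0.0587). The other cytochrome b5 of the list, Cyb5a, was not called (0.17 ± 0.20, adjusted p = 0.612). Of 27 tested regulators 4 were lower and 0 higher, with a median of -0.25. They are the growth hormone receptor Ghr (12.21, 11.86 and 12.08 in WT, 9.02, 7.94 and 9.08 in SRSF3HKO; -3.37 ± 0.31, adjusted p = 0.00126), the hepatocyte factor Cebpa (-1.48 ± 0.33, adjusted p = 0.0263), the glucocorticoid receptor Nr3c1 (-0.76, adjusted p = 0.0320) and the retinoid X receptor Rxra (-0.77, adjusted p = 0.0349). CAR (Nr1i3) had a change of -1.11 ± 0.44 (adjusted p = 0.139), PXR (Nr1i2) -0.32 and Hnf4a -0.18.

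Gene lists outside the family that share its regulation moved in different ways. Of 12 tested CAR and PXR targets 1 was lower and 3 higher, with a median change of 0.00. Of 11 tested male-biased liver genes 10 were called lower, beside 5.03% of all genes. Y-linked signal was present on WT replicates 1 and 2 but only on SRSF3HKO replicate 3. Genotype and this signal are thus not separate in this count, and no count adjusted for the signal was made. WT replicate 3, without Y-linked signal, stood apart in several of them, as in Hsd3b5 (10.61, 10.83 and 5.64 in WT; 4.30, 4.41 and 4.32 in SRSF3HKO, all below the floor), so sizes of change are not given for this list. Of 8 tested female-biased genes 1 was lower and 1 higher (median -0.26). Of 14 tested pericentral genes 2 were lower and 0 higher (median -0.32), and of 11 periportal genes 0 were lower and 2 higher (median 0.28). Among the other P450 families, 6 of 29 tested genes were lower and 3 higher, with a median of -0.26; Cyp4 gave 4 lower and 1 higher of 12, and Cyp3 0 of 3.

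The tissue is bulk liver, in which fewer cells of a type and less RNA per cell cannot be told apart. The summed intensity of the 9 hepatocyte markers was 100844 to 104303 in WT and 89938 to 100090 in SRSF3HKO, with a median change of -0.14. That of 8 macrophage markers was 2724 to 3144 in WT and 3079 to 19130 in SRSF3HKO, with 1 called higher. SRSF3HKO replicate 1 was the highest of the 6 arrays for each of these 8. Cd5l read 9.49, 9.58 and 9.34 in WT and 12.38, 8.51 and 9.60 in SRSF3HKO. Marco, the 1 called, read 6.40, 6.26 and 6.37 in WT and 11.15, 8.43 and 7.81 in SRSF3HKO. The cholangiocyte markers summed to 506 to 750 and 855 to 3031, with 0 of 5 tested called. Endothelial markers summed to 2431 to 3549 and 1378 to 3356 (1 of 7 lower), stellate cell markers to 3334 to 4160 and 3589 to 6251 (1 of 8 lower) and erythroid markers to 3066 to 10748 and 730 to 9873 (1 of 4 lower). Lymphocyte markers summed to 163 to 200 and 93 to 242 and neutrophil markers to 66 to 114 and 106 to 433, with 0 called in either; the part of these cells in the Cyp2 changes was not tested.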

How the data were processed

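Total RNA of mouse liver was labelled and hybridised to 6 exon arrays. The deposited values are probe set intensity on a linear scale, made by the authors with PLIER in Affymetrix Expression Console, per the submitters' processing notes (versions not stated there); background and between-array steps are not given in the sources used here. Of the probe sets, 208397 name 1 gene, 3965 several and 17219 none in the platform annotation given for this work, and 2124 of 16299 listed symbols were updated to RefSeq's. No gene was named from a probe set with several.

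Intensities plus a pseudocount of 16 were put on the log2 scale, and a gene's level was the median over its probe sets of 1 symbol. Genes above 5.35 and probe sets above 5.63, the 90th percentile of 1046 receptor genes, were tested with limma 3.58.1 in R 4.3.3 (lmFit, eBayes with trend), SRSF3HKO (3) against WT (3), with Benjamini-Hochberg adjustment over all tested and a threshold of 0.05. Unequal change was tested with diffSplice. The number of arrays limits the precision. Fits were tested on simulated data. There, the gene-level test recovered 45 of 100 genes with a log2 change of 1 and 99 of 100 with 2. Changes near 1 can thus be missed, and a member not called is not shown to be unchanged. In simulation diffSplice made many false calls when probe sets of a gene differed in spread. The splicing index was therefore added after the data were seen, as was the interaction with Y-linked signal. Promoter pairs were aligned with Biopython 1.88.

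Named were all members, with each array's value for those called and the brightest of each subfamily, and the called partners and regulators. The members and lists were chosen with earlier results of these data known. Alternatives were other pseudocounts, normalizations, summaries, filters and eBayes settings, array weights, a threshold of 0.01, a Y-linked covariate and each array left out.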

Additional observations from a re-analysis of the deposited data

How the results depend on the processing

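Of the 13 members called lower, Cyp2c44, Cyp2c50, Cyp2c67, Cyp2c68, Cyp2d13 and Cyp2j5 were called under all 20 alternatives. The count of Cyp2 genes called lower was 7 at an adjusted p under 0.01 and 6 to 15 with an array left out; the count called higher was 0 to 1, and the median change -1.22 to -0.63. Probe sets called lower numbered 56 at an adjusted p under 0.01, 60 with the Y-linked covariate and 51 to 114 with an array left out; those called higher numbered 1 with array weights and 0 to 6 with an array left out. Genes with unequal change numbered 2 with the filter at the median and 2 to 5 with an array left out. Cyp2g1 lost that call with a pseudocount of 1 (adjusted p = 0.0893) and without any one WT array, and Cyp2d40 without WT replicate 3 (0.0508). Cyp2c29 and Cyp2f2 also lost their gene calls under quantile normalization (adjusted p = 0.0508 and 0.0525) and over probe sets above the floor (0.0533 and 0.0517), and Cyp2f2 with the mean (0.0578), median polish (0.0592) and no filter (0.0523); in these settings Cyp2c29 changed by -0.91 and -0.88, and Cyp2f2 by -3.49 to -3.38. Cyp2c37 gained one with array weights (0.0482). Some changes of uncalled members turned sign. Cyp2b10 was -0.01 under quantile normalization and -0.07 with the mean over probe sets. Cyp2d34 was -0.17 with the mean, -0.18 with median polish and -0.52 over probe sets above the floor. Cyp2a4 was 0.06 with array weights and 0.05 with the Y-linked covariate. With an array left out, Cyp2b10 ran from -0.71 (without SRSF3HKO replicate 3) to 0.67, Cyp2a4 from -0.32 to 0.21 (without WT replicate 2), Cyp2c55 from -0.81 to 0.11 (without SRSF3HKO replicate 2), Cyp2b13 from -1.81 to 0.54 (without WT replicate 3), Cyp2d9 from -0.05 (without WT replicate 3) to 0.70 and Cyp2d12 from -0.38 to 0.08 (without SRSF3HKO replicate 3). The cause of these shifts was not tested, except that leaving out an array leaves fewer samples. No paired analysis was possible because the replicate numbers used here were given in accession order and the labels themselves share none between the groups.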

Other observations

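A further 76 probe sets carry several symbols that are all Cyp2 genes, and no single gene can be named from them. Of the 68 tested, 40 were called lower and 4 higher, with a median log2 change of -1.40. Of all 157764 tested probe sets 4.32% were called lower and 4.73% higher. Those of the Cyp2c subfamily fell in 39 of 44 tested, with a median of -2.09. The 17 tested of the Cyp2a subfamily gave 1 lower and 4 higher, with a median of 2.08, whereas neither Cyp2a gene with probe sets of its own was called. The 7 of the Cyp2d subfamily gave 0 calls, with a median of -0.43.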
